A study of Mus musculus with 9 samples.

Results

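The interleukin-6 family genes followed here are 10 of the 34779 named genes of the deposited table: the cytokines Il6, Il11, Lif and Clcf1, the receptor chains Il6st, Il6ra, Lifr and Osmr, the transcription factor Stat3 and the feedback inhibitor Socs3. They were taken by name from a list, which was drawn up with earlier results of these data known. RNA was sequenced from wild-type neonatal mouse cardiac fibroblasts infected 24 h after seeding and then cultured for 14 days, in 9 libraries that form 3 groups of 3. DsRed cells, used as the control, were infected with virus for a red fluorescent protein. MGT cells were infected with virus for Mef2c, Gata4 and Tbx5, a set of transcription factors used to turn fibroblasts towards cardiomyocytes, and MGT+TMP269 cells had the same infection plus TMP269, an inhibitor of class IIa histone deacetylases whose dose is not stated in the labels. Polybrene and a serum-containing induction medium were common to all groups. The labels name biological replicates but no animals or separate cultures, so the p-values rest on the variation among these 9 libraries, part of which may be technical.

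Cytokines of this family share a signalling receptor, gp130, encoded by Il6st. IL-6 and IL-11 first bind a private receptor (Il6ra or Il11ra1) and then recruit a pair of gp130 chains, whereas LIF joins gp130 to the LIF receptor and oncostatin M joins gp130 to OSMR. JAK kinases held by these chains phosphorylate STAT3, which enters the nucleus and induces targets that include its own inhibitor, Socs3. In the heart, LIF and the related cardiotrophin are known for supporting cardiomyocyte survival and growth, and IL-6 and IL-11 are known as products of activated fibroblasts.

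RefSeq windows on build GRCm38.p6, running from 250 bases before to 50 bases after an annotated start, were on hand for 9 of the 10 genes, as 11 windows. The authors' values were made with another build (mm9), and the windows are shown only for their letters. A total of 6 motifs were searched on both strands: AP-1 (TGANTCA), STAT (TTCNNNGAA), NF-κB (GGGANTTTCC), C/EBP (TTGNGNAA), a cyclic-AMP element core (GACGTCA) and, by name alone, the MEF2 site. Printed below, 5′ to 3′ with matches in capitals, are the windows of Il6, Lif, Il11 and Osmr, which hold the AP-1 letters. That of Socs3, which holds the STAT letters, follows. Il6 and Lif levels moved in opposite directions between DsRed and MGT and between MGT and MGT+TMP269. Il11 has 2 annotated starts and the window of the second is shown.
Il6, chr5:30012864-30013163, plus strand: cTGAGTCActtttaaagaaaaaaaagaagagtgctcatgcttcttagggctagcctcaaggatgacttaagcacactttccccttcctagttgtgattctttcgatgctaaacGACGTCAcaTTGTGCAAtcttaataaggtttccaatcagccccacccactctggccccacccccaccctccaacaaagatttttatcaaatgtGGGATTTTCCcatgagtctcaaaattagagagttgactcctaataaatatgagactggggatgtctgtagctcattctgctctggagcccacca
Lif, chr11:4257318-4257617, plus strand: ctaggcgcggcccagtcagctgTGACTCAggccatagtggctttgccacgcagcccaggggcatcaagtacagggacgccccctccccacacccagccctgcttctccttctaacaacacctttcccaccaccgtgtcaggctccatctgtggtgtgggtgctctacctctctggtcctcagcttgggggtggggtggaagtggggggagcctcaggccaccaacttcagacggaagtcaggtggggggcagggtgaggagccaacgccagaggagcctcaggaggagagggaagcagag
Il11, chr7:4778092-4778391, minus strand: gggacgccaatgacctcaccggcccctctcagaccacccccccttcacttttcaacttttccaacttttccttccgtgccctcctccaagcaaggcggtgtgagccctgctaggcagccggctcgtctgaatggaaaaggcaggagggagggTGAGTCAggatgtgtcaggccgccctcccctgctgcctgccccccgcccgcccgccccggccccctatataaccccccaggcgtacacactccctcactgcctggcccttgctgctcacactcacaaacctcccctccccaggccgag
Osmr, chr15:6874264-6874563, minus strand: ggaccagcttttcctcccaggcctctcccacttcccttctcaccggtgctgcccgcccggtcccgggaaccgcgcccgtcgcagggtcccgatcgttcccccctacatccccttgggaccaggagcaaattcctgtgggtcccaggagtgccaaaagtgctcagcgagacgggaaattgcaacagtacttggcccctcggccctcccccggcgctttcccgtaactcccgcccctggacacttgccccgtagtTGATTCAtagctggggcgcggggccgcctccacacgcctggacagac
Socs3, chr11:117969317-117969616, minus strand: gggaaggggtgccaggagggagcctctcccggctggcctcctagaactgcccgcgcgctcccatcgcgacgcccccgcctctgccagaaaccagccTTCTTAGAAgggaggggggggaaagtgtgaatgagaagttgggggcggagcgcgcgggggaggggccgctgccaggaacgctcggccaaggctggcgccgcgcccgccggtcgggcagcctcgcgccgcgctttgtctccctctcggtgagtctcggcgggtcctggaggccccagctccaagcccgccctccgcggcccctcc
AP-1 letters occurred in 4 of the 11 windows, those of Il6, Lif, Il11 and Osmr, and in 7.81% of all 32851 windows. The Il6 window also held the C/EBP letters, the cyclic-AMP core and the NF-κB letters, which 13.3%, 3.21% and 0.411% of all windows hold. Its matches did not overlap each other. Of the 11 windows, the C/EBP letters were in 2, those of Il6 and Il6ra, and the cyclic-AMP core and the NF-κB letters in 1 each. STAT letters were found in 1 of the 11 windows (8.3% of all windows), that of Socs3, where they begin at position −154 from the start. The MEF2 site was in 0 of the 11 windows and in 3.19% of all windows. These matches describe letters and do not show binding.

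Values are TPM, a share of the transcript pool corrected for length that keeps no record of read depth, so the depth is unknown and no counting interval is given. All 10 genes passed the filter of a mean of at least 1 TPM that left 13228 genes for testing. The sum of 8 fibroblast markers was between 2255 and 10513 TPM, most of it from the collagen genes Col1a1, Col1a2 and Col3a1, while Lum was at most 3.19 TPM in the MGT and MGT+TMP269 libraries and Pdgfra at most 4.78 TPM in MGT+TMP269. Markers of macrophages were also present, with the sum of 16 markers at 744 to 2059 TPM in DsRed, 1873 to 3512 TPM in MGT and 108 to 163 TPM in MGT+TMP269. None of these 16 was at 0 in any library, and limma called 16 of 16 lower in MGT+TMP269 than in MGT, 15 lower in MGT+TMP269 than in DsRed and 1 higher in MGT than in DsRed. With no filter on low values these counts were 13, 11 and 0. The last count was 3 under median-ratio scaling and 4 under quantile normalization. Its 1 gene, Lyz2, was not called without DsRed replicate 1 or 2, MGT replicate 1 or 3 or any 1 MGT+TMP269 library (highest adjusted p 0.142). Of 8 fibroblast markers, 5 were lower and 1 higher in MGT than in DsRed, 5 were lower in MGT+TMP269 than in MGT, and 7 were lower and 1 higher in MGT+TMP269 than in DsRed. Of 8 cardiomyocyte markers 7, 6 and 8 were higher in the same order, and of 6 tested endothelial markers 0, 0 and 3 were lower. Over all tested genes, 8.14% were called higher and 4.18% lower in MGT than in DsRed. The shares were 3.32% and 5.97% for MGT+TMP269 against MGT, and 14.7% and 8.06% for MGT+TMP269 against DsRed. In bulk RNA, fewer cells of a type and less RNA per cell cannot be told apart. The part of these cells in the results below was not tested.

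DsRed replicate 2 stood apart, and this touched the gp130 genes directly. Of the 3 DsRed libraries it had the lowest value for 9 of the 10 genes, all but Il11, as it did for 68.0% of all tested genes. Il6st, at 57.8 TPM there, was at 266.4 and 265.4 TPM in replicates 1 and 3. The deficit was larger in long transcripts. The median log2 difference between replicate 2 and the mean of the others was 0.06 over the quartile of tested genes with the shortest transcripts and −0.90 over the quartile with the longest, and it was −2.18 for Il6st and −1.34 for Osmr. The comparisons of the 10 genes with DsRed, and the counts of the pathway lists, are therefore also given without this library. All groups share a single estimate of the spread in the fit. Leaving out this library therefore keeps the differences between MGT+TMP269 and MGT as they were and changes only their SE and p-values. Genes called in that comparison went from 1229 to 4060.

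**Figure D1:**
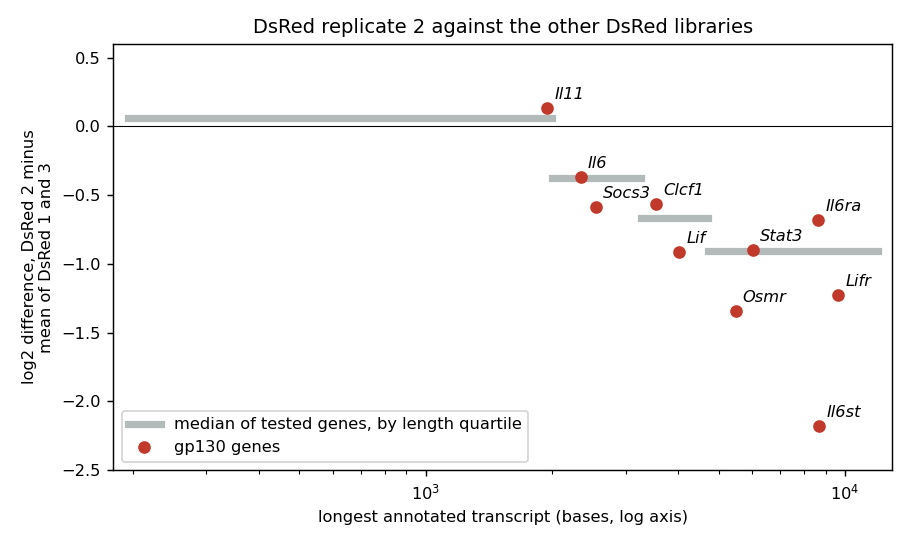
Log2 difference, on log2(TPM + 1), between DsRed replicate 2 and the mean of DsRed replicates 1 and 3 against the length of the longest annotated transcript (bases, log axis). Red points are the 10 gp130 genes and grey bars the medians of all tested genes by length quartile, falling from 0.06 to −0.90. Il6st lies lowest at −2.18 and Il11 highest at 0.13.

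Within each group the gp130 genes spanned a wide range of levels per length. In MGT the order of mean TPM was Il6st (125), Stat3 (76.3), Lif (59.1), Il6 (45.4), Osmr (24.8), Socs3 (9.56), Clcf1 (7.90), Lifr (2.79), Il6ra (2.26) and Il11 (1.94). The ranges of neighbours overlapped only for Socs3 and Clcf1, Lifr and Il6ra, and Il6ra and Il11. The shared chain gp130 was the most abundant, and the private receptor of IL-6 and the LIF receptor were near the bottom. In MGT+TMP269, Il6 at 84.6 TPM stood level with Stat3 at 84.9 TPM, and Lif had dropped below Osmr. In DsRed the ranges of all neighbours in the order overlapped except those of Lifr and Il6ra.

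**Figure D2:**
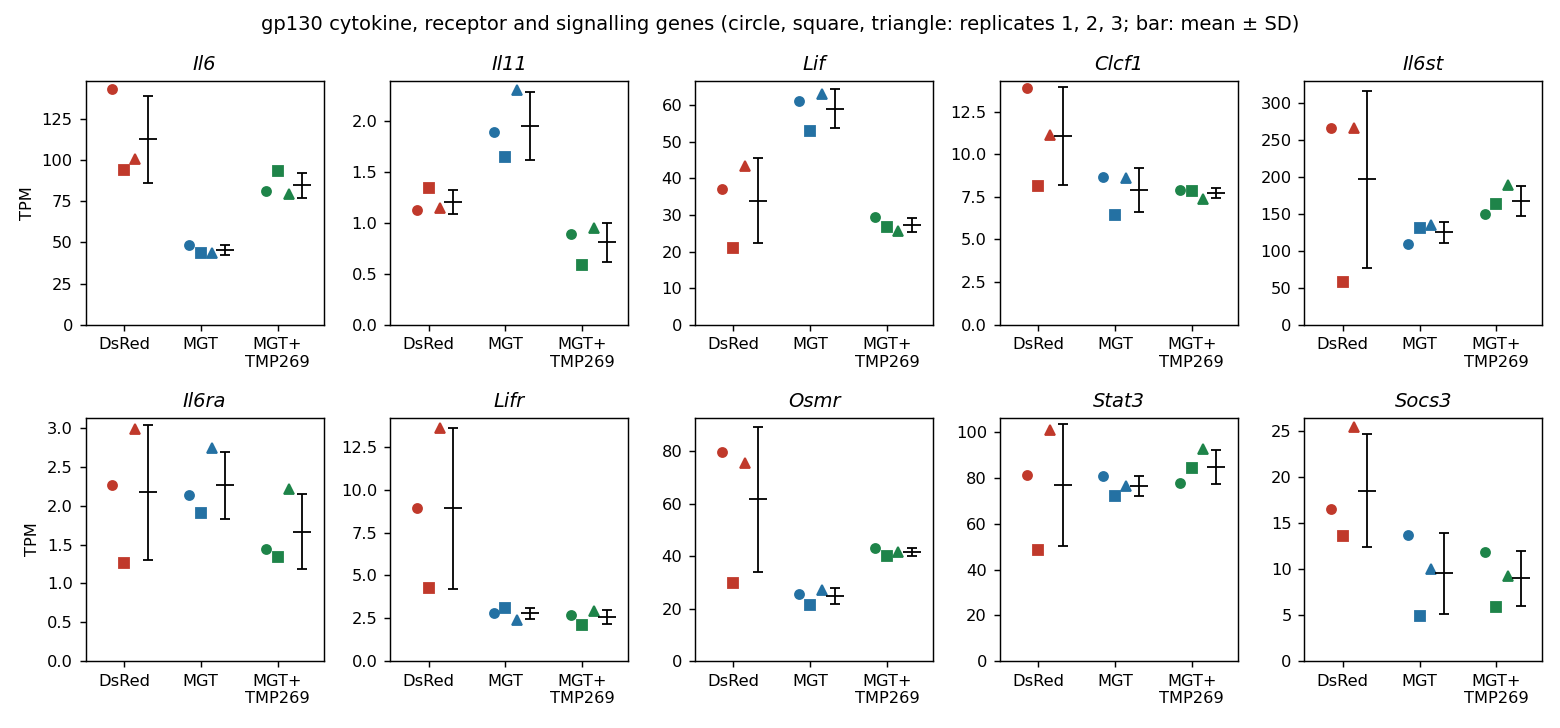
TPM of the 10 genes in each library (linear axes from 0). Circles, squares and triangles are replicates 1, 2 and 3, and the bar beside them is the mean ± SD of 3 libraries. The Il6 libraries of the MGT group lie lowest, between 43.7 and 48.6 TPM, while those of Lif lie highest, between 53.0 and 63.2 TPM.

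Among the ligands, Il6 fell with MGT and rose when TMP269 was added, and Lif did the opposite. Il6, the cytokine that names the family, was at 142.9, 94.1 and 100.6 TPM in DsRed, at 48.6, 43.7 and 43.8 TPM in MGT, and at 81.4, 93.4 and 79.1 TPM in MGT+TMP269. The groups did not overlap in any of the 3 comparisons, with DsRed highest and MGT lowest. Against DsRed, MGT had 2.48-fold less Il6 (log2 −1.27 ± 0.16, adjusted p = 0.00067). TMP269 raised it 1.87-fold over MGT (log2 0.88 ± 0.16, adjusted p = 0.00895). Il6 in MGT+TMP269 was at 0.752 of the DsRed mean, which limma did not call (log2 −0.39 ± 0.16, adjusted p = 0.118), but did call without DsRed replicate 2 (log2 −0.50, adjusted p = 0.0277).

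Lif, the ligand of the LIF receptor, was at 37.2, 20.99 and 43.5 TPM in DsRed, at 61.1, 53.0 and 63.2 TPM in MGT, and at 29.4, 26.6 and 25.7 TPM in MGT+TMP269. MGT libraries were above all others, and those with TMP269 overlapped DsRed through DsRed replicate 2, lying below replicates 1 and 3. Between MGT+TMP269 and DsRed the log2 difference was −0.25 (adjusted p = 0.471), and without DsRed replicate 2 it was −0.55, a called fall (adjusted p = 0.0055). Lif rose 1.74-fold with MGT over DsRed (log2 0.84 ± 0.24, adjusted p = 0.0473). This call was lost with a pseudocount of 0.1, with no filter on low values and in a fit of only those 2 groups. It was also lost when any library of the MGT or MGT+TMP269 group or DsRed replicate 1 was left out (highest adjusted p 0.161). The log2 difference stayed between 0.54 and 0.94 under every library left out except DsRed replicate 3. Without DsRed replicate 2 it was 0.54 with an adjusted p of 0.00793. With TMP269, Lif fell 2.17-fold from MGT (log2 −1.09 ± 0.24, adjusted p = 0.0199). That call was lost without any 1 of the 6 compared libraries (adjusted p from 0.051 to 0.0871), with the difference between −1.16 and −1.04, and was 0.000145 without DsRed replicate 2.

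Because Il6 and Lif moved against each other, their ratio within a library separated the groups, a measure that a single scaling factor per library leaves unchanged and that was chosen after the values were seen. The ratio of Lif to Il6 TPM was 0.26, 0.223 and 0.432 in DsRed, 1.26, 1.21 and 1.44 in MGT, and 0.361, 0.285 and 0.325 in MGT+TMP269. The MGT libraries stood apart from both other groups, which overlapped each other. The deficit of DsRed replicate 2 differed between the genes of this ratio (log2 −0.91 for Lif and −0.37 for Il6). With 3 against 3 libraries the exact two-sided permutation test cannot go below p = 0.10, which was its value for MGT against DsRed and for MGT+TMP269 against MGT (adjusted p = 0.171 over 12 such tests of 4 quantities). The exact test gave p = 0.70 for MGT+TMP269 against DsRed. All 4 quantities were chosen after the values were seen. Il6 made up 71.0 ± 5.9% of the summed TPM of the 4 ligands in DsRed, 39.8 ± 2.4% in MGT and 70.2 ± 2.3% in MGT+TMP269 (SD, n = 3). The sum itself was 158.7 ± 35.3, 114.3 ± 8.3 and 120.4 ± 7.7 TPM, so the last pair of groups had overlapping ligand totals of different make-up (exact permutation p = 0.50 for their sums).

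**Figure D3:**
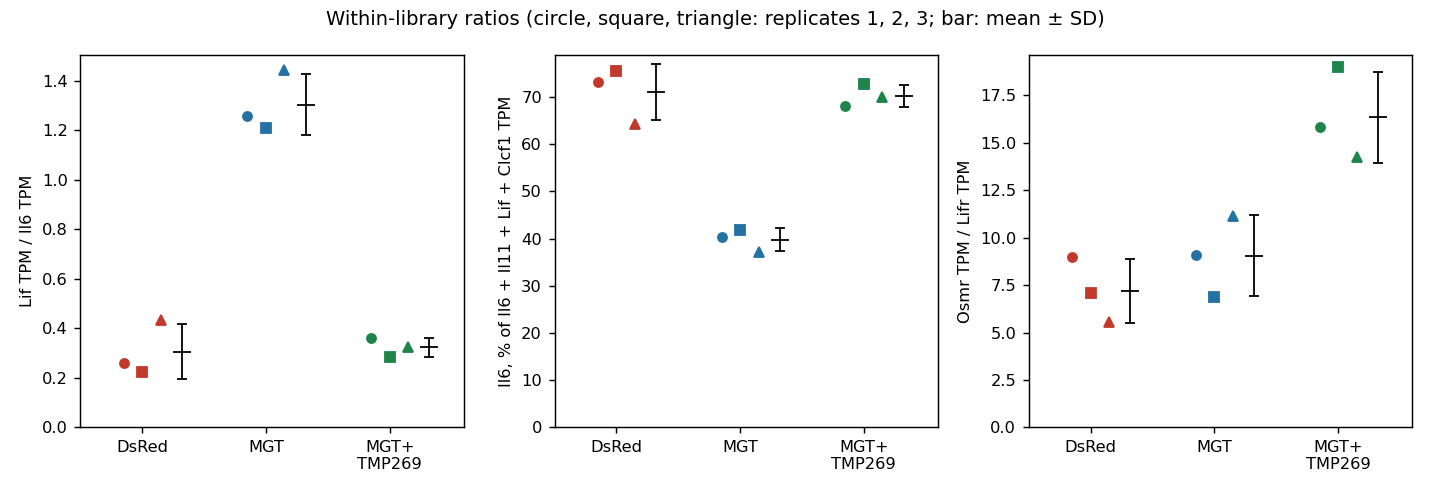
Ratio of Lif to Il6 TPM, Il6 as a percentage of the TPM of the 4 ligands, and ratio of Osmr to Lifr TPM, by group (linear axes from 0). Symbols are replicates 1, 2 and 3 and the bars the mean ± SD. The MGT libraries lie above 1.2 for Lif to Il6 and the others below 0.44, and the MGT+TMP269 libraries lie highest for Osmr to Lifr.

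Il11, a ligand linked to fibroblast activation, was close to the filter. It was at 1.12, 1.34 and 1.14 TPM in DsRed, at 1.89, 1.64 and 2.30 TPM in MGT and at 0.886, 0.588 and 0.943 TPM in MGT+TMP269. No groups overlapped, with MGT highest and MGT+TMP269 lowest, in the same order as Lif. limma called neither the difference of MGT from DsRed (log2 0.42 ± 0.20, adjusted p = 0.232) nor that of MGT+TMP269 from MGT (log2 −0.70 ± 0.20, adjusted p = 0.0573). The latter was called without DsRed replicate 2 (adjusted p = 0.0229), where the differences of MGT and MGT+TMP269 from DsRed were 0.46 and −0.24 (adjusted p = 0.147 and 0.398). Log2 differences at this level are damped by the pseudocount of 1.

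Clcf1, a cytokine that acts through the ciliary neurotrophic factor receptor, was at 13.9, 8.15 and 11.1 TPM in DsRed, at 8.68, 6.43 and 8.60 TPM in MGT and at 7.92, 7.86 and 7.40 TPM in MGT+TMP269. Adding TMP269 gave a log2 difference of −0.02 with a 95% interval from −0.49 to 0.45. The difference of MGT from DsRed, −0.42 ± 0.21, was not called (adjusted p = 0.256), and was −0.60 with an adjusted p of 0.0217 without DsRed replicate 2. That of MGT+TMP269 from DsRed, −0.44 (adjusted p = 0.158), was then −0.62 (adjusted p = 0.0143).

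The receptor chains were all lower on average in MGT than in DsRed, except Il6ra. Osmr, the partner of gp130 for oncostatin M, was at 79.8, 30.0 and 75.6 TPM in DsRed, at 25.8, 21.4 and 27.2 TPM in MGT and at 43.1, 40.1 and 41.5 TPM in MGT+TMP269. MGT overlapped with no other group. Osmr fell 2.49-fold with MGT (log2 −1.17 ± 0.32, adjusted p = 0.0427). The call was lost when any library other than DsRed replicate 2 was left out (highest adjusted p 0.144), whereas without DsRed replicate 2 the difference was −1.62 with an adjusted p of 1.55e-05. MGT+TMP269 had 1.68 times the Osmr of MGT, which was not called (log2 0.73 ± 0.32, adjusted p = 0.223), but was called without DsRed replicate 2 (adjusted p = 0.000929), where Osmr also stayed below DsRed (log2 −0.89, adjusted p = 0.000351).

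Lifr, which pairs with gp130 to receive LIF, fell with MGT and was also below DsRed with TMP269. It was at 8.90, 4.25 and 13.6 TPM in DsRed, at 2.84, 3.10 and 2.43 TPM in MGT and at 2.72, 2.11 and 2.91 TPM in MGT+TMP269. Every DsRed library lay above all 6 others. Lifr fell 3.19-fold with MGT (log2 −1.27 ± 0.33, adjusted p = 0.0359) and was 3.46-fold lower in MGT+TMP269 than in DsRed (log2 −1.36 ± 0.33, adjusted p = 0.0177). The first call was lost without any 1 library other than DsRed replicate 2 (highest adjusted p 0.128) and the second without MGT+TMP269 replicate 1 or 2 (0.0524 and 0.0674). Without DsRed replicate 2 these differences were −1.67 and −1.75, with adjusted p of 0.000561 and 0.000323. Between MGT+TMP269 and MGT the log2 difference was −0.09, with a 95% interval from −0.83 to 0.66.

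The ratio of Osmr to Lifr TPM was 8.96, 7.07 and 5.56 in DsRed, 9.08, 6.90 and 11.2 in MGT, and 15.8, 19.0 and 14.3 in MGT+TMP269. TMP269 libraries lay above all others (exact permutation p = 0.10 against either group, the smallest value possible, adjusted p = 0.171), and the other groups overlapped (p = 0.40). This ratio too was chosen after the values were seen. Its denominator, Lifr, was at only 2.11 to 3.10 TPM in the MGT and MGT+TMP269 libraries.

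Il6st, the shared chain gp130, was at 266.4, 57.8 and 265.4 TPM in DsRed, at 108.5, 131.5 and 135 TPM in MGT and at 149.4, 162.8 and 189.6 TPM in MGT+TMP269. All MGT+TMP269 libraries were above all MGT libraries, and DsRed lay on both sides of them. With all libraries no difference was called (adjusted p from 0.695 to 0.945, SE 0.49). Without DsRed replicate 2, Il6st was lower in MGT than in DsRed (log2 −1.09 ± 0.12, adjusted p = 0.000318), higher in MGT+TMP269 than in MGT (0.42 ± 0.11, adjusted p = 0.0214) and lower in MGT+TMP269 than in DsRed (−0.67 ± 0.12, adjusted p = 0.00333). The last of these had the opposite sign, at 0.05, with all libraries, and turned to −0.19 under median-ratio and −0.07 under quantile scaling. The difference of MGT from DsRed was 0.00 without DsRed replicate 1.

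Il6ra, the private receptor of IL-6, stayed at a few TPM at most, between 1.26 and 2.99 in DsRed, 1.90 and 2.74 in MGT and 1.34 and 2.22 in MGT+TMP269. The groups overlapped in all 3 comparisons and none was called (adjusted p from 0.548 to 0.90). Its difference of MGT from DsRed, 0.07, was −0.01 with median-ratio scaling and −0.17 with quantile normalization. It was −0.15 without DsRed replicate 2, and that of MGT+TMP269 from DsRed was −0.45 (adjusted p = 0.668 and 0.148).

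Of the signalling genes, Stat3, the transcription factor at the end of the pathway, did not separate the groups. It was at 81.2, 48.4 and 100.9 TPM in DsRed, at 80.6, 71.9 and 76.5 TPM in MGT and at 77.8, 84.3 and 92.5 TPM in MGT+TMP269. All groups overlapped. The log2 difference of MGT from DsRed was 0.05 with a 95% interval from −0.47 to 0.57, that of MGT+TMP269 from MGT 0.15 with an interval from −0.37 to 0.67, and the sign of the first turned under median-ratio and quantile scaling (−0.09 and −0.05). The differences of MGT and MGT+TMP269 from DsRed were −0.25 and −0.10 without DsRed replicate 2 (adjusted p = 0.15 and 0.545).

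Socs3, the inhibitor that STAT3 induces, was at 16.5, 13.6 and 25.4 TPM in DsRed, at 13.7, 4.96 and 9.98 TPM in MGT and at 11.9, 5.94 and 9.30 TPM in MGT+TMP269. All DsRed libraries were above the MGT+TMP269 libraries, and MGT replicate 1 reached into the DsRed range. Socs3 was at 0.516 and 0.488 of its DsRed mean in MGT and MGT+TMP269, which limma did not call (log2 −0.94 ± 0.37 and −0.96 ± 0.37, adjusted p = 0.15 and 0.0924). The second was called under median-ratio scaling (adjusted p = 0.0336) and quantile normalization (0.0288). They were −1.12 and −1.14 without DsRed replicate 2 (adjusted p = 0.0779 and 0.0576). Between MGT+TMP269 and MGT it differed by −0.02, with an interval from −0.86 to 0.81, while Il6 differed between the same libraries by 0.88.

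**Figure D4:**
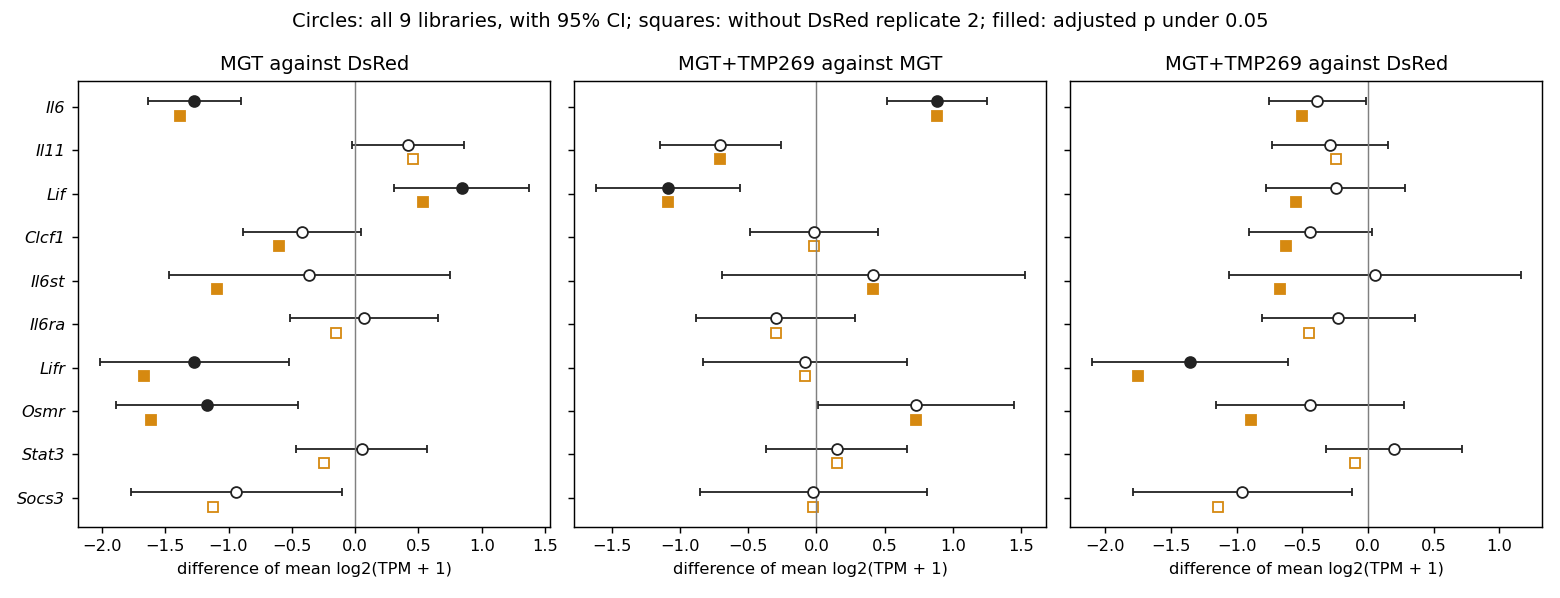
Differences of mean log2(TPM + 1) for the 10 genes in the 3 comparisons. Circles come from all 9 libraries, with 95% intervals, and squares from a fit without DsRed replicate 2, and filled symbols have an adjusted p under 0.05. Il6 and Lif lie on opposite sides of 0 both for MGT against DsRed (−1.27 and 0.84) and for MGT+TMP269 against MGT (0.88 and −1.09), and for Il6st leaving out that library moves the first difference from −0.36 to −1.09.

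In counts, limma called 4 of the 10 genes between MGT and DsRed, Lif higher and Il6, Lifr and Osmr lower, where 12.3% of all tested genes were called (8.14% higher and 4.18% lower). Without DsRed replicate 2 it called 1 higher and 5 lower, where 12.5% and 13.6% of all genes were called (26.1% in all), and with any other library left out at most 2, Il6 always among them. The median log2 difference was −0.39 for the 10 genes and 0.11 for all. Between MGT+TMP269 and MGT it called 2, Il6 higher and Lif lower, against 9.29% of all genes (3.32% higher and 5.97% lower). Here 5 were called without DsRed replicate 2, Il6, Il6st and Osmr higher and Lif and Il11 lower, where 30.6% of all genes were called (19.3% higher and 11.3% lower), and 1, Il6, without any 1 of the 6 compared libraries. The medians were −0.02 for the 10 genes and 0.11 for all. Between MGT+TMP269 and DsRed it called 1, Lifr lower, against 22.8% of all genes (14.7% higher and 8.06% lower). Without DsRed replicate 2 it called 6 lower and 0 higher, where 15.2% and 21.3% of all genes were called (36.6% in all), and 0 without MGT+TMP269 replicate 1 or 2. The medians were −0.34 and 0.22. Groups did not overlap for 5 of the 10 genes in each comparison, against 28.7%, 49.3% and 41.9% of all genes. The comparisons share groups, so their values are not independent of each other.

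Among the other cytokines of the family, Ctf1, cardiotrophin, was at 0.941 to 15.1 TPM over all libraries. Of 8 listed, Osm, Ctf2, Il27 and Il31 did not reach the filter, and Osm, whose receptor chain Osmr was well expressed, was at most 0.675 TPM and listed at 0 in all MGT+TMP269 libraries. Ctf1 fell from 12.1 ± 4.3 TPM in DsRed to 3.24 ± 2.50 TPM in MGT+TMP269 (log2 −1.74 ± 0.50, adjusted p = 0.0348), a call lost without DsRed replicate 1 or 3, MGT replicate 1 or MGT+TMP269 replicate 1 or 2 (highest adjusted p 0.114). Ebi3, a subunit of interleukin-27 made by myeloid cells, fell from 2.36 ± 0.10 TPM in MGT to 0.0759 ± 0.0658 TPM with TMP269 (log2 −1.64 ± 0.26, adjusted p = 0.00441; 0.00516 against DsRed), beside the fall of the macrophage markers given above. The cytokine list had the same counts without DsRed replicate 2, with 0 called for MGT against DsRed, 1 lower for MGT+TMP269 against MGT and 2 lower for MGT+TMP269 against DsRed. Over all genes, 12.3%, 9.29% and 22.8% were called with all libraries and 26.1%, 30.6% and 36.6% without DsRed replicate 2. Among 5 further receptors, Il11ra1, the private receptor of IL-11, was abundant at 63.1 to 164.1 TPM, against at most 2.30 TPM of its ligand. It was 1.74-fold lower in MGT+TMP269 than in DsRed (adjusted p = 0.0281), not called without any 1 MGT+TMP269 library (0.0696 to 0.0977). Il11ra2 and Il31ra were below the filter, and Il27ra and Cntfr, receptors for interleukin-27 and ciliary neurotrophic factor, had means no higher than 3.86 TPM. Of the 3 tested receptors, limma without DsRed replicate 2 called 1 lower, 1 higher and 1 lower in the 3 comparisons. The shares of all genes called in that direction were 13.6%, 19.3% and 15.2%.

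Of 10 tested kinases and adaptors of the pathway, limma called 1 higher in MGT than in DsRed, 0 between MGT+TMP269 and MGT (2, Gab1 and Tyk2, had an unadjusted p under 0.05), and 2 higher and 1 lower in MGT+TMP269 than in DsRed, where 12.3%, 9.29% and 22.8% of all genes were called. Tyk2, a JAK kinase, was at 6.03 ± 1.42 TPM in DsRed, 10.2 ± 0.7 TPM in MGT (adjusted p = 0.0403) and 13.9 ± 0.8 TPM in MGT+TMP269 (adjusted p = 0.00243 against DsRed). The first of these was lost without any 1 MGT or MGT+TMP269 library (highest adjusted p 0.151). Gab1, a docking protein of gp130 and growth factor signalling, was 1.58-fold higher in MGT+TMP269 than in DsRed (adjusted p = 0.0261), a call lost without any 1 MGT+TMP269 library (0.0737 to 0.0945). Jak1, the main kinase of gp130, was at means of 70.8 to 88.6 TPM and was not called in any comparison. Leaving out DsRed replicate 2 gave the list 1 higher and 3 lower for MGT against DsRed, 3 higher for MGT+TMP269 against MGT, and 3 higher and 3 lower for MGT+TMP269 against DsRed, in fits that called 26.1%, 30.6% and 36.6% of all genes.

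Of 11 tested inhibitors of JAK and STAT signalling beside Socs3, Socs2, a feedback inhibitor of growth hormone signalling, fell 1.87-fold with MGT (34.5 ± 4.4 to 18.5 ± 0.9 TPM, adjusted p = 0.00362) and was also lower in MGT+TMP269 than in DsRed (adjusted p = 0.00458). Ptpn6, a phosphatase mainly of blood cells, fell 7.88-fold with TMP269 from 15.3 ± 4.3 to 1.94 ± 1.39 TPM (adjusted p = 0.00628), beside the fall of the macrophage markers. Cish, an inhibitor induced by STAT5, was at 2.25 times its DsRed mean in MGT, just short of a call (log2 1.10, adjusted p = 0.0501), and was called higher in MGT+TMP269 than in DsRed (2.01-fold, adjusted p = 0.0469), with a log2 difference of −0.10 between MGT+TMP269 and MGT. The call was lost without any 1 MGT+TMP269 library, DsRed replicate 1 or 2 or MGT replicate 3 (highest adjusted p 0.154). Socs7 was the other higher one (1.77-fold, adjusted p = 0.0155, lost without MGT+TMP269 replicate 1 or 3, 0.0516 and 0.0705). The proteases Adam10 and Adam17, which can shed the IL-6 receptor from the cell surface, were not called (0 of 2 in each comparison), and both were called higher in MGT+TMP269 than in MGT without DsRed replicate 2, where 19.3% of all genes were. That fit also called 1 of them lower in MGT than in DsRed, where 13.6% of all genes were. For the inhibitors it gave 0 higher and 2 lower for MGT against DsRed, 2 higher and 1 lower for MGT+TMP269 against MGT, and 1 higher and 3 lower for MGT+TMP269 against DsRed. Over all genes it called 26.1%, 30.6% and 36.6% in these comparisons.

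Genes listed as STAT3 response genes went both ways when TMP269 was added, and STAT3 activity itself was not measured. Of 16 tested, 9 fell and 1 rose with MGT against DsRed (median log2 difference −0.65, against 0.11 over all genes), where 4.18% of all genes were called lower and 8.14% higher. With TMP269 against MGT, 5 rose and 6 fell (median −0.16, against 0.11 over all genes), where 3.32% and 5.97% of all genes did. Among those that rose, Bcl3, an NF-κB cofactor, rose 2.30-fold, the kinase gene Pim1 1.91-fold, and the transcription factor genes Myc 1.72-fold, Cebpb 1.495-fold and Junb 1.41-fold (adjusted p from 0.0224 to 0.0446). Other transcription factor genes of the list, Fos, Bcl6 and Cebpd, were not called, at log2 differences of −0.13, −0.18 and 0.24. Of those that rose, Bcl3, Cebpb and Junb had fallen with MGT against DsRed (adjusted p from 0.00561 to 0.0169). The call of the Bcl3 fall was lost without MGT replicate 1 or 2 (adjusted p = 0.0778 and 0.0689). The rises depended on the libraries and the scaling, with 0 or 1 called without any 1 MGT or MGT+TMP269 library and 2 under median-ratio or quantile scaling.

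Those that fell with TMP269 were Saa3, Hp, Serpina3n, Timp1, Lcn2 and Icam1. Saa3, a serum amyloid A protein, was at 457.4, 824.2 and 811.2 TPM in DsRed, at 298.5, 341 and 379.4 TPM in MGT and at 92.9, 86.0 and 113.5 TPM in MGT+TMP269. The groups did not overlap and fell in that order (3.49-fold from MGT to MGT+TMP269, adjusted p = 0.00113). Hp, haptoglobin, fell 5.11-fold with TMP269 from 42.7 ± 4.3 to 8.37 ± 0.986 TPM (adjusted p = 0.000235), the protease inhibitor Serpina3n 2.80-fold (0.000447), Timp1, an inhibitor of matrix metalloproteinases, 2.36-fold (0.000552) and Lcn2, lipocalin-2, 1.85-fold (0.00369). Icam1, an adhesion molecule, fell 1.79-fold (adjusted p = 0.0254), not called without any 1 of the 6 compared libraries (0.0539 to 0.11). The other 5 falls were called under each of those left-out libraries. Serpina3n, Timp1, Saa3 and Icam1 had already fallen with MGT against DsRed, as had Cebpd, a C/EBP factor, and Il4ra, a cytokine receptor chain. The Icam1 call was lost without any 1 library other than DsRed replicate 2 (highest adjusted p 0.127). That of Cebpd was lost without any 1 MGT library or MGT+TMP269 replicate 2 (highest 0.112). That of Saa3 was lost without MGT replicate 1 or 2 or DsRed replicate 3 (highest 0.0791). The 9 falls with MGT became 5 without MGT replicate 1 or 2. The gene that rose, Bcl6, a transcriptional repressor, was 2.35-fold higher in MGT (adjusted p = 0.0121, and 0.0524 without MGT replicate 3). Between MGT+TMP269 and DsRed 1 gene of the list, Bcl6, was higher and 7 were lower (median −0.29, against 0.22 over all genes), where 14.7% and 8.06% of all genes were. The list without DsRed replicate 2 had 1 higher and 10 lower, 5 higher and 6 lower, and 1 higher and 7 lower in the 3 comparisons. Of all genes, 12.5% were then higher and 13.6% lower, 19.3% and 11.3%, and 21.3% and 15.2%, in the same order. Lrg1 did not reach the filter.

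**Figure D5:**
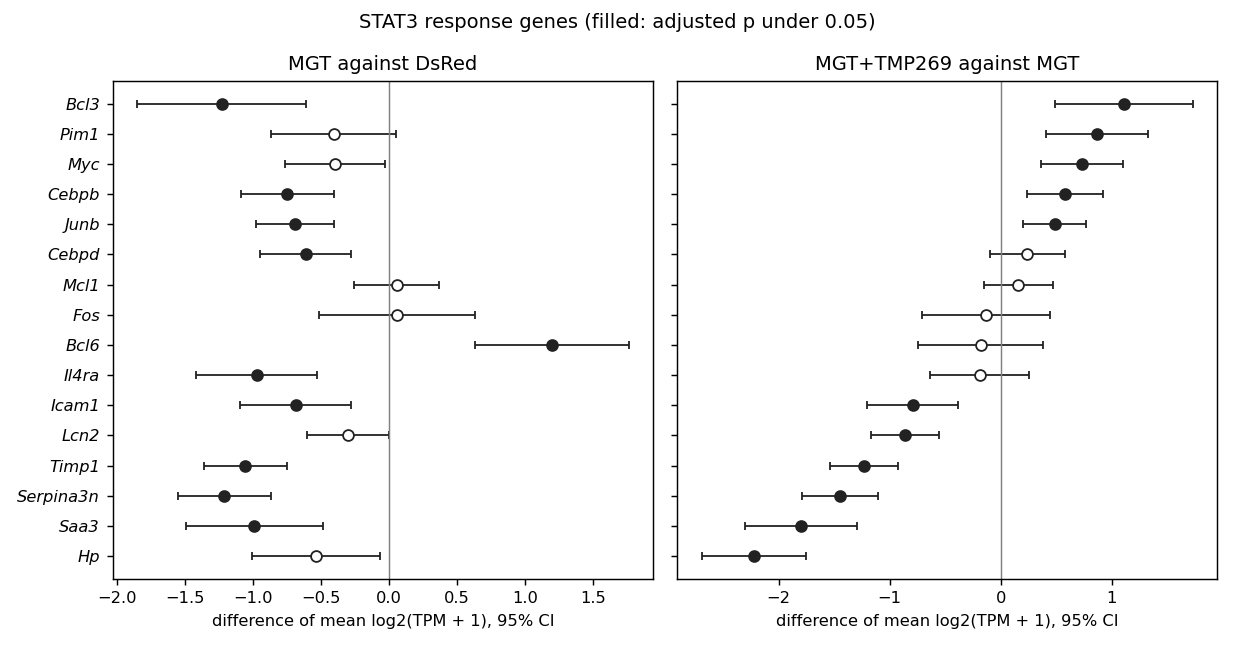
Differences of mean log2(TPM + 1) with 95% intervals for the 16 tested STAT3 response genes, for MGT against DsRed and for MGT+TMP269 against MGT, ordered by the latter. Filled points have an adjusted p under 0.05. With TMP269, Bcl3 lies highest at 1.11 and Hp lowest at −2.22.

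The genes whose levels ran most like those of Il6, by Pearson's r of log2(TPM + 1) over the 9 libraries among 10197 other genes with a mean of at least 5 TPM, were Plscr1, a phospholipid scramblase (r = 0.98), Anxa1, annexin A1 (0.97), Cpe, carboxypeptidase E (0.97), Fam43a (0.97) and Bicc1, an RNA-binding protein (0.97). The points share the 3 groups, so these values describe a shared order of the groups: all 5 were lowest in the MGT libraries. Anxa1, for example, was at 1018 to 1100 TPM in MGT, 1514 to 1700 TPM in MGT+TMP269 and 1833 to 2149 TPM in DsRed.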

How the data were processed

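The authors deposited TPM values in 1 table with a line for each gene symbol. The submitters' processing notes name kallisto, DESeq2 and build mm9, and which tool did what, with which version, is not given in the sources used here. Columns summed to between 988020 and 988999, and 25 of 34804 lines that carried a date in place of a symbol were left out (0.123% to 0.176% of the TPM). No library pair was identical (0 pairs).

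limma 3.58.1 in R 4.3.3 was run on log2(TPM + 1) over all 9 libraries, with group as the only term, a variance trend, two-sided tests and Benjamini-Hochberg adjustment over the 13228 genes with a mean of at least 1 TPM. Genes were called at an adjusted p under 0.05. The fit was tested on simulated data with independent noise of the same spread in every library of a gene. Those data held no library like DsRed replicate 2, so the test cannot show how the fit behaves with such a library. Differences are ± SE and levels ± SD. Folds compare mean TPM and are left out if either mean is under 1. Exact permutation tests used SciPy 1.17.1, and intervals are at 95%. By rule, the text names all 10 genes, list members called in any comparison, unexpressed ligands and receptors, and the 5 genes most like Il6. Jak1, Il27ra, Cntfr, Adam10, Adam17 and Lrg1 were added after their values were seen. Socs1 and Pim3 were not analysed here, and some list members counted in the text are not reported by name. The members and lists were chosen with earlier results of these data known. Transcript lengths came from GENCODE M21, matched for 98.7% of tested genes. Alternatives covered the pseudocount, filter, scaling, samples, trend, replicate block and each library left out. Array weights and removal of the length trend were added after seeing the data.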

Additional observations from a re-analysis of the deposited data

How the results depend on the processing

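The 7 calls of the 10 genes kept their direction under every alternative (131 of 131 values) and were called in 90 of them. Counts of the 10 genes called moved as follows. For MGT against DsRed the 4 became 3 with a pseudocount of 0.1, 1 with no filter on low values and 1 when only those 2 groups were fitted. Lif was not called under any of these alternatives. The 4 became 2 without the variance trend, but 5 under median-ratio scaling, quantile normalization or the length trend removed. With array weights they became 6, and they ranged from 1 to 6 with a library left out. The 2 for MGT+TMP269 against MGT became 5 in a fit of only the 2 groups, 5 with array weights and 4 with the length trend removed, and ranged from 1 to 5. The 1 for MGT+TMP269 against DsRed became 0 at a mean of at least 5 TPM and in a fit of only the 2 groups, 6 under median-ratio scaling, 5 under quantile normalization, 6 with array weights and 7 with the length trend removed, and ranged from 0 to 6. The replicate numbers did not pair the libraries (r of deviations from −0.07 to 0.13 over 9 same-numbered pairs, 3 of 9 libraries closest to their own number). With the replicate block the counts were 4, 2 and 2, the last by a call of Socs3 (adjusted p = 0.031).

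All genes called for MGT against DsRed went from 1630 to 1058 in a fit of only the 2 groups, 2915 with array weights and 2634 with the length trend removed, from 1065 to 3468 with a library left out. For MGT+TMP269 against MGT the 1229 became 4511, 4818 and 2050 under the same 3 alternatives, from 626 to 4060. For MGT+TMP269 against DsRed the 3016 became 1782 in a fit of only the 2 groups, from 1865 to 4851. DsRed replicate 2 gave the highest of each range when left out.

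Signs turned only for uncalled differences. For MGT against DsRed these were Il6ra (0.07), at −0.0098 under median-ratio scaling, −0.167 quantile, −0.0912 array weights and −0.165 length trend removed (−0.153 to 0.256 among left-out libraries), Stat3 (0.05), at −0.0861, −0.0457, −0.178 and −0.154 in the same order (−0.245 to 0.277), and Il6st (−1.09 to 0.0025 among left-out libraries). For MGT+TMP269 against MGT, Stat3 was −0.0184 with the length trend removed, and with a library left out Clcf1 ranged from −0.144 to 0.047, Lifr from −0.155 to 0.0126 and Socs3 from −0.386 to 0.267. For MGT+TMP269 against DsRed, Il6st (0.05) was −0.19 median-ratio, −0.0741 quantile, −0.61 array weights, −0.371 length trend and −0.673 to 0.42 among left-out libraries, and Stat3 (0.20) was −0.0436, −0.0371 and −0.172 under median-ratio scaling, array weights and length trend (−0.0963 to 0.426). The cause of these shifts was not tested. Median-ratio and quantile scaling moved the median of all genes from 0.11 to −0.01 and −0.03 for MGT against DsRed, with 1077 higher and 553 lower becoming 1150 and 913, and 1192 and 1135. For MGT+TMP269 against DsRed they moved it from 0.22 to −0.0033 and 0.03, with 1950 higher and 1066 lower becoming 1573 and 1720, and 1755 and 1706. TPM keeps no depth, so precision at low levels such as those of Il11 and Il6ra is unknown.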
